A study of Rattus norvegicus with 16 samples.

Results

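The calcium- and sodium-activated potassium channels measured here are 6 genes: Kcnma1, Kcnmb4, Kcnn1, Kcnn2, Kcnn3 and Kcnt1. They were taken by gene symbol from a table of isoform expression, with every isoform listed under those symbols. That gave 13 isoforms of 21698 in the table, or 6 of 16602 gene symbols: 4 isoforms of Kcnma1, 3 of Kcnn2, 2 each of Kcnn1 and Kcnt1, and 1 each of Kcnmb4 and Kcnn3. RNA was taken from dorsal CA1, a field of the hippocampus, in male Sprague-Dawley rats killed at postnatal day 14. On postnatal day 7, 8 of the rats had been given 2 mg/kg of kainate under the skin, a glutamate receptor agonist that set off seizures in each of them, and the other 8 had been given saline. The labels name no genetic change in either group. Slices 400 µm thick recovered for 60 min in both groups before CA1 was cut out, so every library also reflects slicing and recovery. A single dose and a single time after it were sampled, and the rat numbers in the sample titles differ between all 16 libraries.

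These channels let potassium out of a neuron when calcium or sodium has entered it, so each spike feeds back on the next. Kcnma1 encodes the pore of the large-conductance (BK) channel, which opens with depolarization and calcium together, shortens the action potential and carries the fast afterhyperpolarization. Kcnmb4 encodes the beta4 subunit, which slows BK gating and makes it resistant to the toxin iberiotoxin; mice without it develop temporal lobe seizures. Kcnn1, Kcnn2 and Kcnn3 encode the small-conductance (SK) channels SK1, SK2 and SK3, which are opened by calcium through bound calmodulin and are indifferent to voltage. In CA1 pyramidal neurons SK2 sits in dendritic spines and limits the synaptic NMDA receptor response. Kcnt1 encodes the sodium-activated channel Slack, and human gain-of-function mutations in it cause severe epilepsies of infancy.

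In the authors' deposited table, whose genome build was not given in the sources used here, Kcnma1 lies on chromosome 15 with a gene start of 344360, and Kcnn3 on chromosome 2 with a gene start of 188844073. Kcnmb4 lies on chromosome 7 (59461799), Kcnn1 on chromosome 16 (20336638), Kcnn2 on chromosome 18 (39335377) and Kcnt1 on chromosome 3 (3310954). All 13 isoforms are typed there as protein coding.

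Promoter windows of 300 bases, 250 before and 50 after the gene start, were read from RefSeq (GRCr8) for 5 of the 6 genes; Kcnn1 was not matched. Those of Kcnma1 (chr15:351675-351974, plus strand) and Kcnn3 (chr2:177234090-177234389, plus strand) are shown. Both genes were higher after kainate with an unadjusted limma p under 0.05 when the replicate number was a block. Neither reached that with treatment alone in the fit, neither passed with adjustment, and a pairing by number was not shown. Capitals mark the GC box, GGGCGG on either strand, with overlapping matches counted separately.
Kcnma1: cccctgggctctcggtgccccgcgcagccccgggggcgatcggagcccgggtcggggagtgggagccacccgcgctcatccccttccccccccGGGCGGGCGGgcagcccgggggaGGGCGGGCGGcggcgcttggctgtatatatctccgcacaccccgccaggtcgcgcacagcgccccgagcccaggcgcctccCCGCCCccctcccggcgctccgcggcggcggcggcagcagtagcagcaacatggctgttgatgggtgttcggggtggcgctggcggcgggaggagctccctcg
Kcnn3: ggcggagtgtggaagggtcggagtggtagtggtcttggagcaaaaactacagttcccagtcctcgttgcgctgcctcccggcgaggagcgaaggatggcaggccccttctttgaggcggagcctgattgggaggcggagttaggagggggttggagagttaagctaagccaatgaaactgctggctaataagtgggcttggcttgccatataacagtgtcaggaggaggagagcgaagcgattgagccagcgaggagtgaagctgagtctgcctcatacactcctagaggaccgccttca
The Kcnma1 window held 38 CpG pairs and 5 GC boxes. The Kcnn3 window held 13 CpG pairs and no GC box. Over 33469 RefSeq promoter windows of the same length, the median was 7 CpG pairs, and 33.1% held a GC box. None of the members' windows held the cAMP response element TGACGTCA, the E-box CACGTG or the TATA box TATAAA, which were found in 1.83%, 6.42% and 14.2% of all windows.

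Values are on the log2 scale the authors deposited for each rat, on which weak isoforms are compressed. Gene totals are the log2 of the isoforms' summed linear values. Levels of different genes are not ranked, because no transcript lengths were at hand. Depth per library is unknown. Of the CA1 markers 7 of 8 were measured, with mean normalized counts from 718 (Ndst4) to 36329 (Wfs1). Markers of other fields and cells were measured too. Their counts reached 12169 (Nnat) for CA3, 3524 (Dock10) for dentate granule neurons and 126667 (Mbp) for myelin. The libraries fell into 2 sets by replicate number, 1 to 4 and 5 to 8, each with 4 kainate and 4 control rats; the first principal component, 45.3% of the variance, separated them. The labels name no batch, so what the sets are is not known, and they were recognised from the data. Differences of the members' gene totals and ratios are therefore also given within each set. Those of the related and marker lists are not.

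After kainate the pore gene of BK, Kcnma1, and the SK3 gene, Kcnn3, were each higher by about 0.08 to 0.09 log2 units on average, in 7 of 8 same-numbered pairs. The beta4 gene Kcnmb4 and the SK1 gene Kcnn1 were lower in 6 of 8 pairs by 0.04 and 0.03 on average. SK2 (Kcnn2) and Slack (Kcnt1) were mixed. None of the 6 totals passed a test with adjustment, and the groups overlapped for every member.

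The counts over pairs and tests are set here against all genes. A difference upward in at least 7 of 8 pairs was seen for Kcnma1 and Kcnn3, 2 of 6 genes, against 4.54% of all genes. It was seen for 2 of 13 isoforms, against 4.75% of all. Downward, the Kcnn1 isoform ENSRNOT00000044291 was as even, higher after kainate in only 1 of 8 pairs. The share of all isoforms in that direction was not counted. A higher mean after kainate was seen for 4 of 6 genes, against 47.6% of all, and for 9 of 13 isoforms, against 49.9%. In limma, without pairing, 0 of 6 gene totals and 0 of 13 isoforms had an unadjusted p under 0.05, against 1.39% of 16602 genes and 1.50% of 21698 isoforms. With the replicate number from the sample titles as a block, Kcnma1 and Kcnn3 did, 2 of 6 genes against 6.60% of all genes, and 2 of 13 isoforms against 6.13%. Both were higher after kainate, as 4.05% of genes and 4.03% of isoforms were in that fit. With a term for the replicate sets in place of the block the same pair passed, against 5.07% of genes and 4.81% of isoforms. The adjusted threshold was passed by 0 genes and 0 isoforms in these limma fits, and by 7 isoforms, none a channel member, in the authors' deposited table. There, 2 of 13 member isoforms had an unadjusted p under 0.05, against 5.66% of all. The members were proposed with results of these libraries known, so their share is a description.

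Kcnma1 totals ran from 11.43 to 11.89 with a median of 11.77 in the kainate libraries, and from 11.44 to 11.86 with a median of 11.62 in the controls. The lowest libraries of both groups all came from replicates 5 to 8, and the groups covered nearly the same range. The means were 11.72 ± 0.18 after kainate and 11.63 ± 0.18 in controls (SD, n = 8 each), a difference of 0.09 (SE 0.08), or 1.06-fold on the deposited scale. With limma fitted over all genes, the p was 0.315 and the adjusted p 1.00. With the block the SE fell to 0.03, with p 0.0168 and adjusted p 0.750 by limma.

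Pair by pair, the Kcnma1 total was higher after kainate by 0.03, 0.05, 0.06 and 0.16 in replicates 1 to 4 and by 0.13, 0.04 and 0.25 in replicates 5, 6 and 8. Replicate 7 was the exception, at -0.01. Within replicates 1 to 4 the difference was 0.07, with the 4 kainate libraries between 11.86 and 11.89 and the controls between 11.70 and 11.86 (two-sided exact permutation p 0.0857). Within replicates 5 to 8 it was 0.10 (exact p 0.143). The smallest p that 4 against 4 allows is 0.0286, and the difference between the sets was not detected (limma interaction, adjusted p 1.00).

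**Figure D1:**
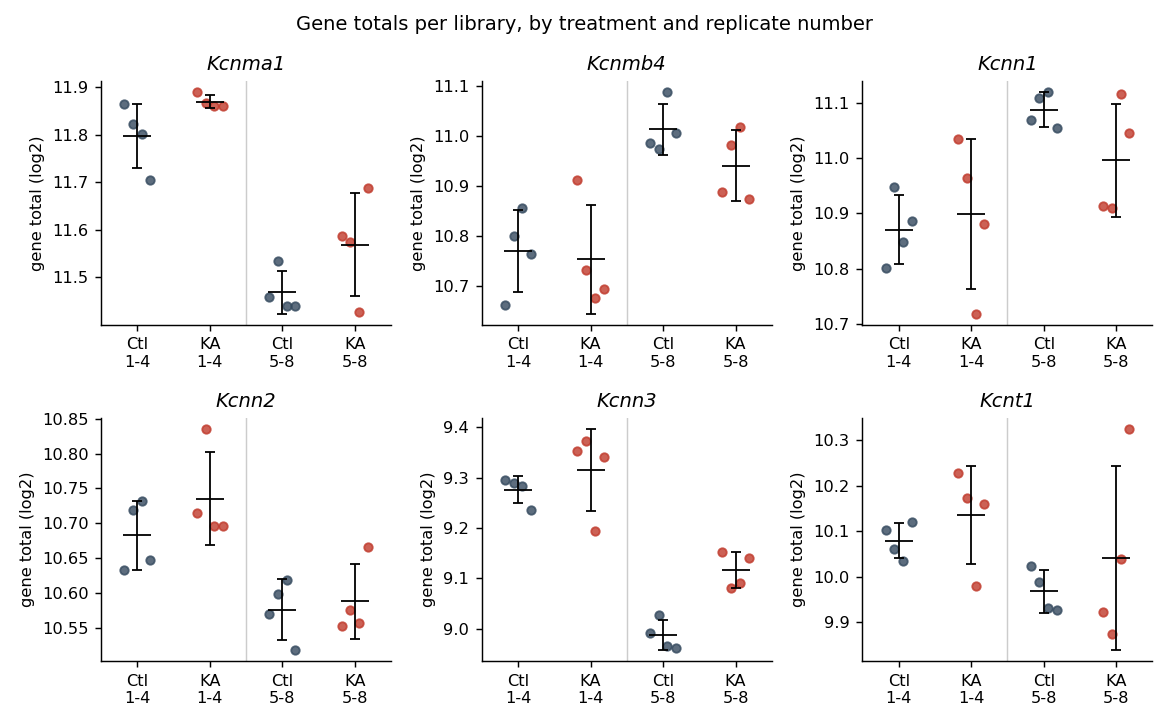
Gene totals (log2 of summed deposited values) of the 6 channel genes, 1 point per library, for control (Ctl) and kainate (KA) rats in replicates 1 to 4 and 5 to 8; bars are the mean and SD of 4 libraries. Kcnma1 and Kcnn3 separate the replicate sets without overlap, while kainate and control libraries overlap for every gene when the sets are pooled.

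Of the 4 Kcnma1 isoforms, ENSRNOT00000077671 showed the widest difference. Its kainate libraries ran from 9.19 to 9.63 (median 9.37) and its controls from 9.01 to 9.54 (median 9.31). Kainate libraries were higher in 7 of 8 pairs, in 3 of 4 pairs in the first set and 4 of 4 in the second, and the pooled groups overlapped. The difference was 0.12 (SE 0.08), with limma p 0.159; with the replicate block the SE was 0.03, p 0.00257 and adjusted p 0.797. In the authors' deposited table, which comes from counts, the same isoform had a log2 fold change of 0.19 (SE 0.05), a ratio of 1.14, p 0.000372 and adjusted p 0.182. It was 35th of 21698 by p in the authors' deposited table. The most abundant isoform by summed value, ENSRNOT00000091318, was at 10.64 ± 0.24 after kainate and 10.55 ± 0.20 in controls (SD, n = 8 each), and higher in 5 of 8 pairs. The authors' deposited table gave it p 0.0574. The last pair, ENSRNOT00000066928 and ENSRNOT00000065542, differed by 0.06 and 0.05 and were higher in 4 and 5 of 8 pairs.

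Kcnmb4, the BK auxiliary subunit of neurons, ran from 10.68 to 11.02 (median 10.88) after kainate and from 10.66 to 11.09 (median 10.91) in controls. The groups overlapped almost fully, and the highest library of each group came from replicates 5 to 8. The means were 10.85 ± 0.13 and 10.89 ± 0.14 (SD, n = 8 each), a difference of -0.04 (SE 0.06), with limma p 0.499 and adjusted p 1.00. Kainate libraries were higher in only 2 of 8 pairs, and replicate 1, at 0.25, was the widest of these. Within sets the differences were -0.02 and -0.07 (exact p 0.857 and 0.229). The authors' deposited table gave its isoform a log2 fold change of -0.06 and p 0.329.

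Among the SK genes, Kcnn3 ran from 9.08 to 9.37 (median 9.17) after kainate and from 8.96 to 9.30 (median 9.13) in controls. In replicates 5 to 8 every kainate library, from 9.08 to 9.15, was above every control, from 8.96 to 9.03. The share of all genes that separated so within a set was not counted. In replicates 1 to 4 the groups overlapped, with replicate 3 lower after kainate by 0.09. The overall means were 9.22 ± 0.12 and 9.13 ± 0.16 (SD, n = 8 each), a difference of 0.08 (SE 0.07) or 1.06-fold. The limma p was 0.215 with adjusted p 1.00. With the replicate block the SE was 0.03, p 0.0167 and adjusted p 0.750. Within replicates 5 to 8 the difference was 0.13, with exact p 0.0286, the smallest that set allows and not adjusted over genes or sets. Within replicates 1 to 4 it was 0.04, with exact p 0.400. The 2 sets' differences were not shown to differ (limma interaction, p 0.122, adjusted p 1.00). In the authors' deposited table the Kcnn3 isoform ENSRNOT00000028117 had a log2 fold change of 0.14 (SE 0.06), a ratio of 1.10, p 0.0225 and adjusted p 0.660.

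Kcnn2 ran from 10.55 to 10.84 (median 10.68) after kainate and from 10.52 to 10.73 (median 10.63) in controls. The difference was 0.03 (SE 0.04), with limma p 0.464, and kainate was higher in 4 of 8 pairs: 3 of 4 in the first set and 1 of 4 in the second. Kcnn2 differed by 0.05 within the first set and by 0.01 within the second (exact permutation p 0.286 and 0.771). Its isoform ENSRNOT00000022530 made up 92.1% ± 0.6 of the summed Kcnn2 value after kainate and 91.7% ± 0.7 in controls (SD, n = 8 each). The second isoform, ENSRNOT00000083642, was lower after kainate by 0.05 on average, higher in 2 of 8 pairs. ENSRNOT00000067262 was low on the scale, at 2.74 to 2.95 in all libraries, with a mean normalized count of 7.43 in the authors' deposited table, too weak to compare.

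Kcnn1 ran from 10.72 to 11.12 (median 10.94) after kainate and from 10.80 to 11.12 (median 11.00) in controls. The mean difference was -0.03 (SE 0.06), with limma p 0.597. Kainate was lower in all 4 pairs of replicates 5 to 8, by 0.09 on average (two-sided exact permutation p 0.143, n = 4 each). Those pairs differed by -0.16 and -0.20 in replicates 5 and 6, but only by -0.004 and -0.008 in replicates 7 and 8. In replicates 1 to 4 the difference was 0.03, of the opposite sign. Replicate 1 alone was higher by 0.23. The difference between sets was not detected (limma interaction, p 0.186).

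Kcnt1, the Slack channel, ran from 9.87 to 10.32 (median 10.10) after kainate and from 9.93 to 10.12 (median 10.03) in controls. Kainate libraries spread more widely, with an SD of 0.16 against 0.07, and lay on both sides of the controls. The highest library of all was kainate replicate 8, 0.40 above its same-numbered control. The mean difference was 0.06 (SE 0.06), with limma p 0.289. Kainate was higher in 5 of 8 pairs. Kcnt1 differed by 0.06 within replicates 1 to 4 and by 0.07 within replicates 5 to 8 (exact permutation p 0.400 and 0.714). Its isoforms ENSRNOT00000061773 and ENSRNOT00000023542 differed by 0.07 and 0.05.

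**Figure D2:**
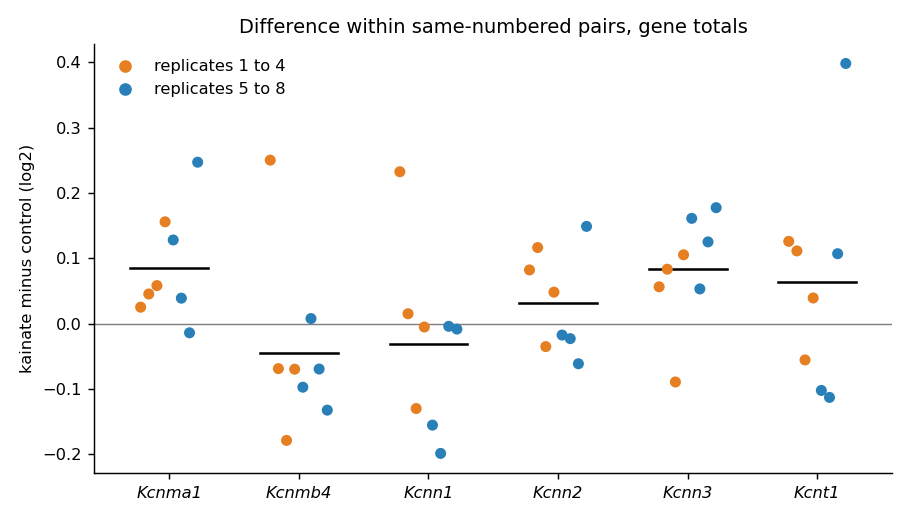
Kainate minus control (log2) within each same-numbered pair of libraries, for the 6 gene totals; points are pairs, coloured by replicate set, and black lines are the means of 8 pairs. Kcnma1 and Kcnn3 have 7 of 8 pairs above 0, and Kcnt1 has 1 pair at 0.40 that stands above its others.

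**Figure D3:**
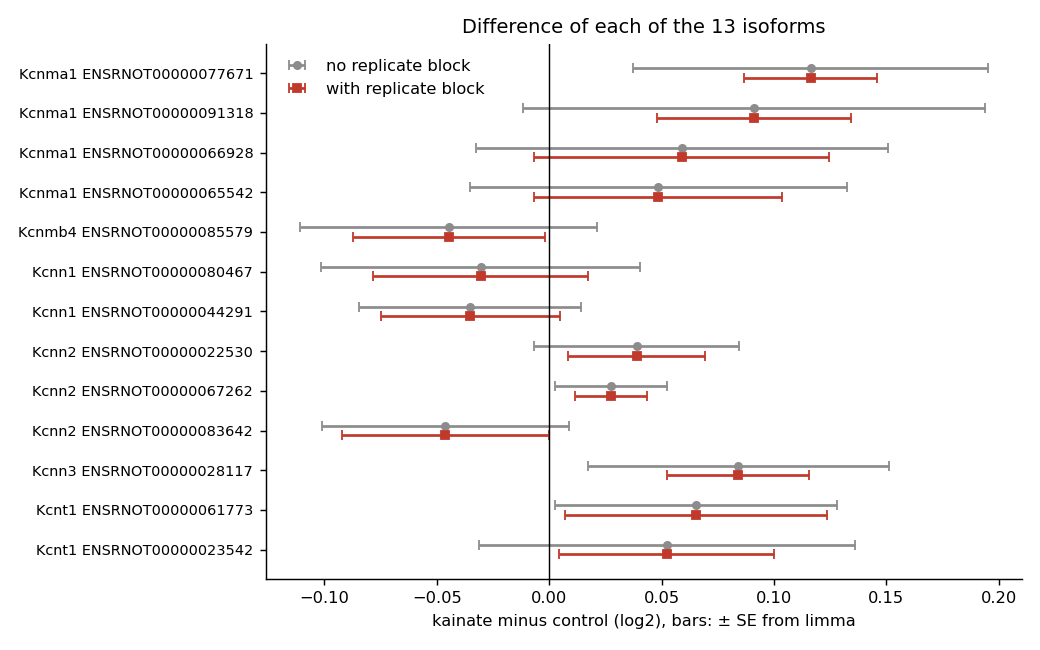
Kainate minus control (log2) for the 13 isoforms, with bars of 1 SE from limma, without (grey) and with (red) the replicate number as a block. With the block the bar of the Kcnma1 isoform ENSRNOT00000077671 narrows from 0.08 to 0.03 and that of Kcnn3 from 0.07 to 0.03.

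No change in the mix of isoforms was detected. ENSRNOT00000091318 made up 47.6% ± 2.9 of the Kcnma1 sum after kainate and 47.3% ± 1.4 in controls (SD, n = 8 each). ENSRNOT00000077671 made up 20.4% and 19.9%, and the other two between 15.7% and 16.7%. The larger Kcnn1 isoform, ENSRNOT00000080467, held 74.2% in both groups, and the larger Kcnt1 isoform 84.1% and 84.0%. These shares are of summed deposited values and are not per length. In limma's test of isoform usage, none of the 4 members with several isoforms passed: p was 0.308 for Kcnn2, 0.811 for Kcnma1, 0.905 for Kcnt1 and 0.959 for Kcnn1, with adjusted p 1.00 each. Of 3774 genes tested, 2.33% had p under 0.05 and 0 passed with adjustment; with the block the share was 6.81%, and no member was among them.

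Ratios within a library set an auxiliary or related subunit against its partner, and only their differences between libraries are read. The log2 ratio of Kcnmb4 to Kcnma1 was -0.87 ± 0.29 after kainate and -0.74 ± 0.32 in controls (SD, n = 8 each). It was lower after kainate in 7 of 8 pairs, and replicate 1 was the exception. The difference was -0.13, with a two-sided exact permutation p of 0.398, adjusted p 0.462 over the 3 ratios. Exact sign flips within the pairs gave p 0.0703, adjusted p 0.188. Within sets the ratio differed by -0.09 (exact p 0.343) and -0.17 (exact p 0.143). The ratio of Kcnn3 to Kcnn2 differed by 0.05 (exact p 0.260): by -0.01 in replicates 1 to 4 and by 0.12 in replicates 5 to 8, where all 4 kainate libraries lay above the 4 controls (exact p 0.0286, adjusted p 0.0857). The same Kcnn3 values enter this ratio, and how many other ratios separate so was not counted. The ratio of Kcnn1 to Kcnn2 differed by -0.06 (exact p 0.462): by -0.02 in replicates 1 to 4 and by -0.10 in replicates 5 to 8 (exact p 0.743 and 0.143).

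**Figure D4:**
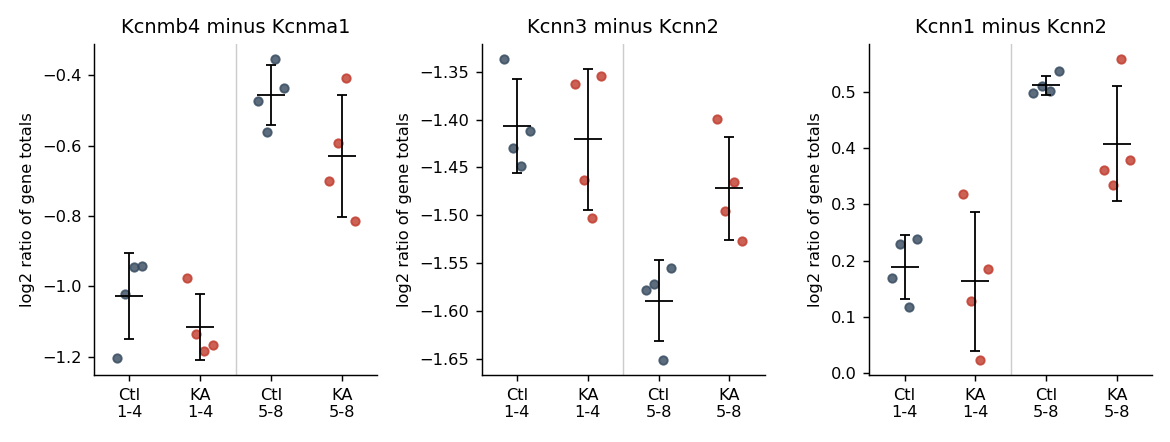
Log2 ratios of gene totals within each library, for control (Ctl) and kainate (KA) rats in each replicate set; points are libraries, bars are the mean and SD of 4. The Kcnmb4 to Kcnma1 ratio lies between -1.20 and -0.94 in replicates 1 to 4 and between -0.81 and -0.35 in replicates 5 to 8.

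For all 6 genes the difference between the replicate sets was larger than that between treatments. Kcnma1 totals were 11.83 ± 0.06 in replicates 1 to 4 and 11.52 ± 0.09 in replicates 5 to 8 (SD, 8 libraries each), with no overlap between the sets. The difference of 0.31, or 1.24-fold, had a limma adjusted p of 2.90e-06. Kcnn3 was also higher in replicates 1 to 4 without overlap, 9.30 ± 0.06 against 9.05 ± 0.08, by 0.24 (adjusted p 6.65e-06). Kcnn2 was higher by 0.13 (adjusted p 0.00211) and overlapped. Kcnmb4 went the other way, lower in replicates 1 to 4 by 0.21 (adjusted p 0.000271), and so did Kcnn1, by 0.16 (adjusted p 0.00874). Kcnt1, higher by 0.10, did not pass (adjusted p 0.122), although its weaker isoform ENSRNOT00000023542 did, by 0.26 and without overlap. The ratio of Kcnmb4 to Kcnma1 averaged -1.07 in the first set and -0.54 in the second, and did not overlap. Of the 6 genes 5 passed, against 42.5% of all genes (19.3% higher and 23.3% lower in the first set), and 2 did not overlap, against 10.7%. Of the 13 isoforms 9 passed, against 38.8%, and 3 did not overlap, against 9.83%. Because the sets were recognised in these libraries, their tests describe them only. Taken alone, the controls gave a Kcnma1 difference of 0.33 and the kainate libraries 0.30.

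Gene span, the length of the gene from start to end in RefSeq (GRCr8), ran alongside both differences. The spans were 706 kb for Kcnma1, 440 kb for Kcnn2, 152 kb for Kcnn3, 55.8 kb for Kcnt1, 53.0 kb for Kcnmb4 and 23.8 kb for Kcnn1, the members that were higher on average being the 4 longest. Over 14526 genes with a span, the median kainate difference rose by class from -0.014 under 10 kb to 0.036 over 300 kb. The median difference between replicate sets rose from -0.071 to 0.10 over the same classes. With this trend removed from every library, the kainate differences became 0.04 for Kcnma1, 0.06 for Kcnn3, 0.06 for Kcnt1, -0.03 for Kcnn1 and -0.05 for Kcnmb4, and that of Kcnn2 turned to -0.01. With the block as well, limma gave p 0.0806 for Kcnma1 and 0.0467 for Kcnn3, so that 1 of 6 genes and 0 of 13 isoforms had p under 0.05, against 6.71% of the genes and 6.36% of the isoforms with a span. The Kcnma1 difference between replicate sets was 0.16 with the trend removed. In that comparison 4 of 6 genes then passed, without Kcnn2, against 6839 of the 14526 genes with a span. Of the isoforms 6 of 13 passed, near the 44.8% of all isoforms with a span. The Kcnma1 isoforms ENSRNOT00000077671 (limma adjusted p 0.0750), ENSRNOT00000066928 (0.148) and ENSRNOT00000065542 (0.199) and the Kcnn2 isoform ENSRNOT00000022530 (0.938) no longer passed. ENSRNOT00000067262, 1 of the 6, came to pass (0.00226), lower in replicates 1 to 4. Before the removal its difference was 0.030 (limma adjusted p 0.357), on values from 2.74 to 2.95. Its call thus came with the subtraction and is not read as a difference of the isoform. What the trend with span comes from was not tested.

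**Figure D5:**
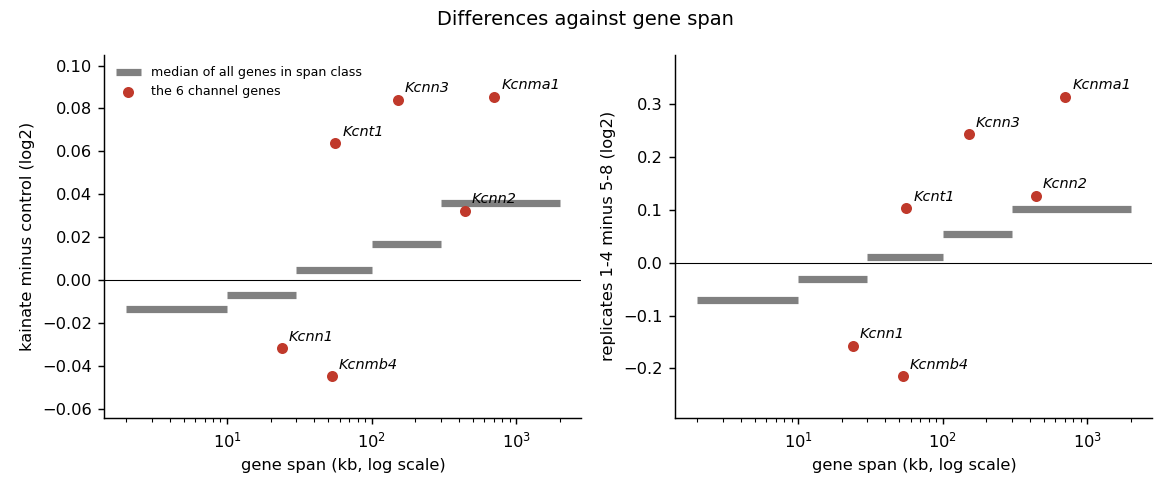
Differences of the 6 gene totals (red points, log2) against gene span (kb, log axis), for kainate minus control (left) and replicates 1 to 4 minus 5 to 8 (right); grey bars are medians of all genes in 5 span classes, the open-ended outer classes drawn to a fixed end. Both sets of medians climb with span, and Kcnma1, Kcnn3 and Kcnt1 lie above the bar of their class in both panels.

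The genes that feed these channels with calcium were each higher on average after kainate, 10 of 10 measured, with a median of 0.07 against -0.0017 for all genes, of which 47.6% were higher. Their summed log2 level averaged 16.37 in replicates 1 to 4 and 15.95 in replicates 5 to 8. The genes share these libraries, so they are not 10 separate observations. Unblocked, none had an unadjusted limma p under 0.05. With the block, 3 of 10 did, against 6.60% of all genes: Cacna1e, which encodes the R-type calcium channel, by 0.21 (SE 0.07, p 0.0130), Cacna1d, an L-type channel, by 0.10 (p 0.0481), and the ryanodine receptor Ryr2 by 0.15 (p 0.0432), each with adjusted p 0.750. Ryr2 was named after its values were seen; Itpr1, the IP3 receptor of neurons, differed by 0.07. Sodium channel genes were higher in 7 of 8, with a median of 0.06. The axonal channel gene Scn8a differed by 0.12 and the auxiliary subunits Scn2b and Scn4b by 0.08 each, and Scn8a and Scn2b, 2 of 8, had p under 0.05 with the block, against the same 6.60% (limma p 0.0305 and 0.0179, adjusted p 0.750 each). The list medians with the span trend removed were 0.040 and 0.039.

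Regulators of BK and sodium-activated channels were higher in 8 of 10, with a median of 0.04. Here the protein kinase C genes Prkcb and Prkce differed by 0.13 and 0.08 and had p under 0.05 with the block, 2 of 10 against 6.60% of all genes (limma p 0.00733 and 0.0440, adjusted p 0.750 each); Zdhhc22, a palmitoyltransferase that acts on BK, differed by 0.05. The SK channel complex was lower in 6 of 10, with a median of -0.004, and 0 members had p under 0.05 in either fit. In it, the casein kinase 2 subunits Csnk2a1 and Csnk2b differed by 0.05 and -0.06, and the scaffold Mpp2, which holds SK2 in synapses, by 0.05. The other calcium- and sodium-activated subunits were higher in 6 of 7, but their median of 0.007 turned to -0.0008 when libraries were centred on their medians, and 0 had p under 0.05. Kcnmb1 and Kcnn4, the beta1 and intermediate-conductance subunits, were low on the scale, at 2.41 and 3.49 after kainate, and Lrrc55, a BK gamma subunit, differed by 0.03.

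Each member was set beside the gene totals that varied most like it across the 16 libraries, after the means of the 4 sets (treatment by replicate set) were removed, among 12699 protein-coding genes. For Kcnma1 the nearest was Cacna1e (Pearson r 0.963), followed by Atg2b (0.949). For Kcnn3 they were Cpt1a (0.876) and Plxnb1 (0.870), and for Kcnn2 Cmip (0.865) and Spred2 (0.835). Grin2d (0.906) was among the nearest to Kcnt1 and Mfge8 (0.961) among the nearest to Kcnn1, and for Kcnmb4 they were Dusp26 (0.899) and Rbm42 (0.895). These points share libraries and are the highest of many, so the r values are descriptions.

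Cell marker lists were compared as well, without the span trend removed, and no marker passed with adjustment. Markers of myelinating oligodendrocytes were lower after kainate in 7 of 7, with a median of -0.12, and those of dentate granule neurons higher in 7 of 8, with a median of 0.07. Of all genes 47.6% had a higher mean after kainate. An unadjusted limma p under 0.05 was found for the dentate markers Prox1 (0.23) and Stxbp6 (0.14), the myelin marker Cnp (-0.12) and the interneuron marker Pvalb (-0.12), named after their values were seen, against 1.39% of all genes. With the block, against 6.60% of all genes, limma p was under 0.05 for 4 of 7 myelin markers (Cnp, Mag, Mbp and Cldn11, each lower) and 3 of 8 dentate markers (Prox1, Stxbp6 and Pdzd2, each higher). It was also under 0.05 for the CA1 markers Gpr161 and Wfs1 and the interneuron marker Npy, each higher, and for Pvalb and the microglial marker Aif1, each lower. These too were named after their values were seen, and each had adjusted p 0.750. CA1 markers were higher in 5 of 7 (median 0.05) and CA3 markers lower in 5 of 7 (median -0.04). Interneuron (median -0.01), astrocyte (-0.01), oligodendrocyte precursor (0.02), endothelial (0.02) and vessel wall (0.04) markers had medians nearer to 0 than the CA3 list, and microglial markers were lower in 4 of 5 (median -0.04). The summed log2 level of the dentate markers ran from 13.20 to 13.71 after kainate and from 13.21 to 13.55 in controls, and that of the myelin markers from 17.74 to 18.20 and from 17.86 to 18.29. The dentate sum averaged 13.50 in replicates 1 to 4 and 13.30 in replicates 5 to 8, and the CA1 sum 16.48 and 16.56. The weakest markers by mean normalized count were Iyd of the CA3 list, at 9.58, and Lct of the dentate list, at 12.9. In bulk tissue fewer cells of a type and less RNA per cell cannot be told apart, and the part these markers have in the channel values was not tested.

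In the authors' deposited tables of enriched terms, Kcnma1 stood in 13 of 20 Gene Ontology terms, the first being gated channel activity with 20 genes and an adjusted p of 0.000429, and in 6 of 186 KEGG terms. The other 5 members stood in 0. Kcnma1 and Kcnn3 were the members among the 1334 names the authors listed in order of p. Those lists were drawn from these same libraries.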

How the data were processed

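CA1 RNA of 8 kainate and 8 saline rats was sequenced from Illumina libraries, per the labels' protocols. The submitters' processing notes list RSEM, DESeq2, Trim Galore, SAMtools and GATK as the authors' tools. Aligner, build and annotation were not given in the sources used here. For each isoform and rat the authors deposited a log2 value, whose transform is not named and which from the values compresses weak isoforms. Their table also holds the authors' mean normalized count (a signal), log2 fold change, Wald score, p-value and the ratio (fold) equal to 2 to the power of that log2 fold change. The authors' term tables give p-values and scores.

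limma 3.58.1 (R 4.3.3; trend and robust options) was fitted to the log2 values of all 21698 isoforms and to 16602 gene totals, and diffSplice to 3774 genes, with no filter, added constant or further normalization. A count test was planned only had counts been deposited. Tests were two-sided with Benjamini-Hochberg adjustment over all features and a threshold of 0.05. Ratios and within-set differences used exact permutation (SciPy 1.17.1). The fits were tested on simulated data. Depth is unknown, so no counting interval is given. Values of 191 isoforms were identical to those of another, 0 of them members.

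Replicate numbers 1 to 8 come from the sample titles. Deviations from the group means correlated in all 8 same-numbered pairs (r 0.127 to 0.781, above 0.1). On that ground the numbers were taken to pair the libraries. Same-numbered libraries are in the same replicate set, so these r values cannot tell pairing from the sets. With the replicate sets removed, r ran from -0.349 to 0.667, and was below 0 in pairs 1 (-0.349) and 8 (-0.112). The pair counts and block fits thus rest on a pairing that was not shown. The labels do not say that numbers mark a litter or day.

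The members and lists were chosen with earlier results of these data known. Named genes were all members, the 3 genes of each related list with the smallest p, and the 2 genes most like each member among those with a mean normalized count of at least 100; markers were summarised by counts, medians and summed levels. A few genes this rule names are not reported here. Alternatives were the block, a term for the replicate sets, each set alone, each library or pair left out, a minimum mean normalized count of 50, median centring, limma without its options, the highest isoform alone, the authors' result and, chosen after seeing the data, removal of the gene span trend (loess, span 0.5; 87.5% of genes had a span).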

Additional observations from a re-analysis of the deposited data

Results flagged for a closer look

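Kcnn2 isoform ENSRNOT00000067262 in kainate replicate 1, at a log2 value of 2.95, lay apart from the other 7 kainate libraries, of which the highest was at 2.82; the gap was 0.652 of the group's range, above a critical value of 0.526. Over 44 groups checked, chance marks about 1 in 20. The isoform is weak, with a mean normalized count of 7.43, and its part in the Kcnn2 total was at most 0.460% in every library.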

How the results depend on the processing

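Features with an unadjusted limma p under 0.05 numbered 325 isoforms and 230 genes without a block, and 1330 and 1096 with the replicate block, 1044 and 841 with a term for the replicate sets, 1090 and 849 in replicates 5 to 8 alone, 183 and 126 at a mean normalized count of at least 50, and 1233 and 974 with the block and the span trend removed; the authors' deposited result had 1228 isoforms. Of the channels, 2 isoforms passed under the block, the set term, replicates 5 to 8 and the authors' result, and 2, 2, 1 and 1 genes under the block, the set term, replicates 5 to 8, and the block with the span trend removed. The block changed no other call of a member. With adjustment 0 passed in the limma fits named here and 7 in the authors' result. Centring on medians moved the split of 142 higher to 183 lower isoforms to 87 and 293. Isoform usage had 257, 191 and 276 genes with p under 0.05 under the block, the set term and replicates 5 to 8, where 5 passed with adjustment, and 55 at the count minimum.

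Leaving out 1 library gave 227 to 636 isoforms, 152 to 494 genes and 60 to 194 usage genes with p under 0.05, 0 to 1 usage genes past adjustment, and 0 channel genes or isoforms. Isoform counts moved most without kainate replicate 7 (636), control replicate 2 (530) or control replicate 1 (517), and gene counts also without kainate replicate 6 (352) or control replicate 5 (152). Without pair 8, 212 isoforms and 138 genes were left and ENSRNOT00000066928 turned to -0.0046. Kcnma1 totals ran from 0.06 to 0.13, Kcnn3 from 0.06 to 0.11, Kcnn2 from 0.0075 to 0.048, Kcnt1 from 0.03 to 0.09, Kcnmb4 from -0.08 to -0.02 and Kcnn1 from -0.057 to 0.00098, and ENSRNOT00000080467 from -0.059 to 0.011; Kcnn1 and this isoform turned without kainate replicate 3.

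Signs turned in replicates 1 to 4 alone for ENSRNOT00000065542 (-0.047), ENSRNOT00000044291 (0.010), ENSRNOT00000080467 (0.035), the Kcnn1 total (0.028) and Kcnn3 to Kcnn2 (-0.014). They turned with the span trend removed, with or without the block, for ENSRNOT00000022530 (-0.00091), ENSRNOT00000067262 (-0.012) and the Kcnn2 total (-0.0063). Between the replicate sets, span removal turned ENSRNOT00000022530 (-0.0031), ENSRNOT00000083642 (-0.11), ENSRNOT00000067262 (-0.11) and the Kcnn2 total (-0.0053); controls alone turned ENSRNOT00000083642 (-0.0095) and kainate libraries alone ENSRNOT00000044291 (0.023). Kainate libraries alone left Kcnmb4 (-0.19), Kcnn1 (-0.10) and Kcnn2 (0.15) short of the threshold. Controls alone, also 8 libraries, left Kcnn2 (0.11) short. In kainate libraries 1593 isoforms and 1640 genes passed, and in controls 5253 isoforms and 5065 genes. Where not stated, the cause was not tested. Depth is unknown, and compression at low values hides differences of weak isoforms.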
